A study of Mus musculus with 4 samples.

Results

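The 8 genes Cdh1, Epcam, Krt8, Krt18, Cldn4, Cldn6, Cldn7 and Esrp1 encode junction, filament and splicing proteins of epithelial cells. They were taken from the expression table by gene symbol, and all 8 were found among its 24873 genes. On day 9, RNA of cerebral endothelial cells (ECs) was sequenced in 4 libraries, of which 2 were controls and 2 were from tamoxifen-treated mice, and each library pooled the cells of 3 animals. All mice, controls included, had the genotype Cdh5cre;Mgpflox/flox, in which the promoter of Cdh5 (VE-cadherin) drives a tamoxifen-activated recombinase in ECs and Mgp is flanked by its target sites. Mgp encodes matrix Gla protein, a secreted inhibitor of bone morphogenetic proteins. The tamoxifen group received 75 mg/kg daily in 5 injections from 10 weeks of age, which is meant to delete Mgp in ECs, and the littermates of the control group received none. An effect of the drug itself and an effect of the deletion therefore cannot be told apart. The labels name the cells Brain tdTomato+, whereas the study's methods describe a CD31+CD45- isolation. Column names begin with C or A, which were read as control and tamoxifen, although the labels give no A.

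Epithelial sheets are held together by adherens junctions, tight junctions and desmosomes. In adherens junctions the cadherin of one cell binds the cadherin of its neighbor and connects to actin through catenins. Claudins seal the tight junction, and keratins form paired filaments of type I and type II proteins that anchor at desmosomes. Brain ECs also build junctions, but with VE-cadherin and Cldn5, and their main intermediate filament protein is vimentin rather than keratin. Several of the 8 genes are active outside classical epithelia as well. E-cadherin and Epcam are known from pluripotent stem cells, and Krt8 and Krt18 from the trophectoderm of the early embryo and from other simple epithelia.

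Between 35387438 and 49799321 reads per library fell on genes. Values are normalized read counts, that is, reads divided by 1 factor per library. In every library 3 reads corresponded to 2.16 to 4.11 normalized counts. The targeted gene Mgp had 1094 and 1352 normalized counts in control and 945 and 909 in tamoxifen, and its log2 fold change of -0.39 ± 0.18 (SE) did not pass the test (adjusted p = 0.0986). The 10 endothelial markers were all detected in every library, and all 10 were called lower in the tamoxifen libraries, with a median log2 fold change of -2.88. In such bulk samples, fewer cells of a type and less RNA per cell cannot be told apart.

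Epithelial junction and keratin genes were nearly all more abundant in the tamoxifen libraries. The test was limma on log2(normalized count + 1) over 20485 genes whose mean over the 4 libraries reached 10 normalized counts, which all 8 did. A gene low in control could thus be tested through its tamoxifen values alone, as Cldn4 was. A gene was called when its Benjamini-Hochberg adjusted p was below 0.05 and its log2 fold change lay beyond 1 in either direction. Of the 8, 7 were called higher, none was called lower, and Esrp1 was not called. Over all genes tested 28.6% were called higher and 16.0% lower. Both tamoxifen libraries lay above both control libraries for the same 7 members, as they did for 43.1% of all genes, and both lay below for 39.2%. The median log2 fold change of the 8 was 2.48, against 0.05 for all genes tested. Cdh1 and Cldn4 had the largest changes, and Cldn7 the smallest among those called. Without either tamoxifen library, 2 of the 8 were called, Cdh1 and Cldn4. For 1 gene in 2 against 2 libraries, the smallest two-sided p of an exact permutation test is 0.333, so the calls rest on a spread that limma shares across genes. In all that follows, a gene given by name alone was named after its values were seen.

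**Figure D1:**
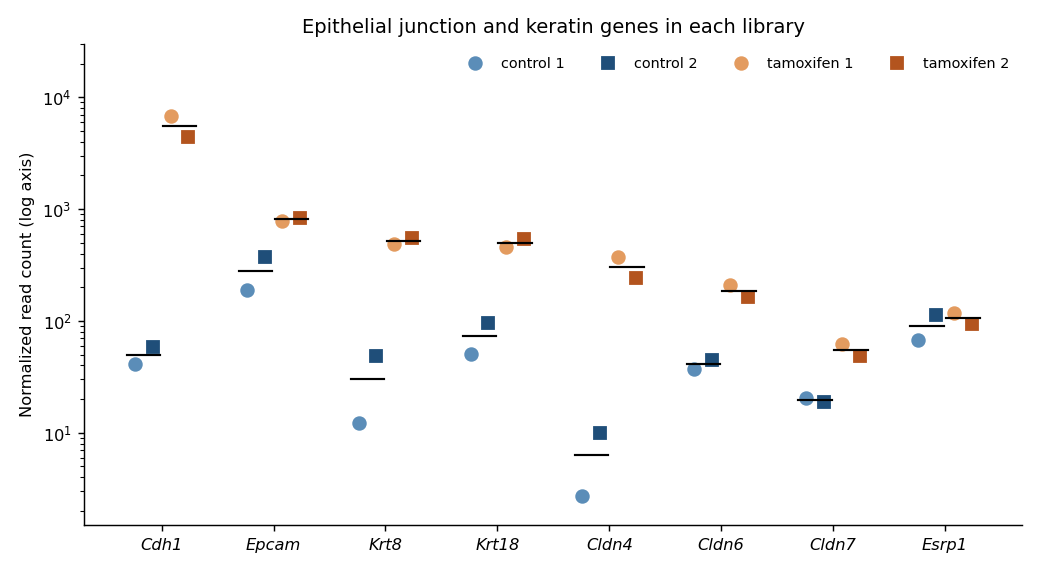
Normalized read counts (log axis) of the 8 genes in each of the 4 libraries, with symbols for libraries and black bars for the mean of each group (n = 2). For Cdh1 the control libraries sit at 41.1 and 58.8 and the tamoxifen libraries at 6746 and 4447, whereas for Esrp1 the groups overlap.

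Because 7 of the genes were higher together, the sequence before their starts is shown. RefSeq promoter windows (table build GRCm38.p6) were found for 6 of the 8 genes, with 7 windows in all since Cldn7 has a pair of starts. Cdh1 and Esrp1 were not matched. Each window covers the 250 bases before a start, with position -1 as the last base before it, and the same bases were found once in GRCm39, whose coordinates are given. The windows were searched for the E-box CAGGTG or its reverse complement CACCTG, the letters that repressors of the SNAI and ZEB families are known to bind. Capitals mark these letters. All 6 genes held at least 1 match, in 6 of the 7 windows, and 17.2% of 32851 promoter windows of the same length held one. The window of Epcam at chr17:87943157-87943406 on the plus strand held matches at -187 and -19, and 2.06% of all windows held more than 1 match. The window of Cldn4 at chr5:134975789-134976038 on the minus strand held a match at -14. Both are shown whole because they end where the annotated gene begins.
Epcam: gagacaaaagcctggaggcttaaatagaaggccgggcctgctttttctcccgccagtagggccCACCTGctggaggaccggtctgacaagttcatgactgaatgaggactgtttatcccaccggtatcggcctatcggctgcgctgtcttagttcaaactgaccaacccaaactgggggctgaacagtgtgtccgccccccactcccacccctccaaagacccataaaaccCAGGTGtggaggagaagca
Cldn4: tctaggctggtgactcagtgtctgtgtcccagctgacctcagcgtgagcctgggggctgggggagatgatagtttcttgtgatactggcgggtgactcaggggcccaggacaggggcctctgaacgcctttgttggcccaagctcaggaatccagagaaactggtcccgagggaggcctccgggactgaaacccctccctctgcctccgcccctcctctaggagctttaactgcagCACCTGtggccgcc
For Krt18, Cldn6 and Cldn7, whose windows run into other annotated transcripts of the same gene, only the bases around each match are shown. The matches start at -214 for Krt18, -93 for Cldn6, and -97 and -57 for the second start of Cldn7, counted at the first capital.
Krt18, chr15:101936425-101936454, plus strand: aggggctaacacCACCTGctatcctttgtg
Cldn6, chr17:23898234-23898263, plus strand: gggaaacgcacgCAGGTGgctatcgccgca
Cldn7, chr11:69856138-69856167, plus strand: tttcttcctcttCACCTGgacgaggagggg
Cldn7, chr11:69856178-69856207, plus strand: agacttccggttCAGGTGagtgtcccttca
The letters AACNGGTT or AACCNGTT, known for grainyhead-like factors, were in none of the 7 windows and in 1.79% of all windows. These matches describe the sequence and do not show that a factor was bound.

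Cdh1 encodes E-cadherin, the calcium-dependent adhesion protein of epithelial adherens junctions. It lies at chr8:107329941-107396880 on the plus strand of GRCm39, with 16 merged exons. Its level was 41.1 and 58.8 normalized counts in control (30 and 47 reads) and 6746 and 4447 in tamoxifen (6224 and 6186 reads). The means were 49.96 ± 12.5 and 5596 ± 1625 (SD, n = 2 each), and the ratio of the means was 112. Both tamoxifen libraries stood far above both control libraries, and the gap exceeded the spread within either group. The log2 fold change was 6.77 ± 0.29 (SE), with an adjusted p of 5.97e-06. It was called under all 14 alternatives tried, with log2 fold changes from 6.47 to 7.24.

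Among cadherins the make-up of the whole family differed between the groups. Levels are compared between genes only as normalized counts per kilobase of exon. By that measure Cdh5, the adherens junction cadherin of ECs, made up 94.5% and 94.4% of the 22 listed cadherins in control but 53.8% and 37.3% in tamoxifen. Cdh1 made up 0.0464% and 0.0608% and then 22.0% and 18.4%, and it moved from place 11 of 22 to place 2. Cdh2, the N-cadherin of neural and mesenchymal cells, took 3.37% and 3.28% and then 9.12% and 16.7%. In normalized counts Cdh2 itself was 5578 and 5925 in control and 5225 and 7548 in tamoxifen, groups that overlap (log2 fold change 0.13 ± 0.20, adjusted p = 0.609). Cdh5 fell from 79151 and 86328 to 15585 and 8508 normalized counts (log2 fold change -2.84 ± 0.31, adjusted p = 0.000196). The ratio of Cdh1 to Cdh5 per kilobase was 0.00049 and 0.00064 in control and 0.409 and 0.494 in tamoxifen, so E-cadherin RNA stayed below VE-cadherin RNA in every library. Of the 19 cadherins tested, 11 were called higher and 2 lower, against 28.6% and 16.0% of all genes tested. Cdh3, the P-cadherin of basal epithelia, had the next largest log2 fold change after Cdh1 (5.14 ± 0.92), from 2.74 and 32.5 to 355 and 439 normalized counts. Cdh23, known from the tip links of hair cells, was the other cadherin called lower, at 304 and 318 against 83.5 and 92.7. Without either tamoxifen library 6 cadherins were called higher, and 1 was called lower without tamoxifen replicate 2.

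**Figure D2:**
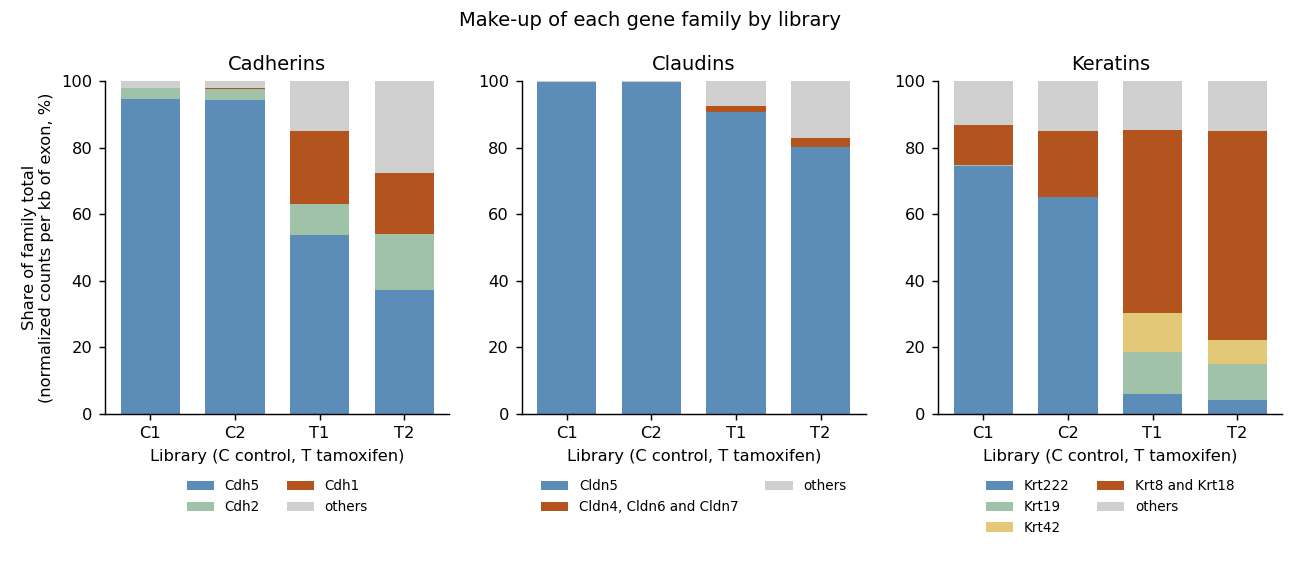
Share of each family total (percent of normalized counts per kilobase of exon) in control libraries C1 and C2 and tamoxifen libraries T1 and T2, for 22 cadherins, 17 claudins and 19 keratins. Cdh1 reaches 22.0% and 18.4% of cadherins under tamoxifen, Cldn4, Cldn6 and Cldn7 together reach 1.74% and 2.49% of claudins, and Krt8 and Krt18 together reach 54.8% and 62.7% of keratins.

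Epcam encodes an epithelial cell adhesion molecule that spans the membrane and associates with Cldn7. It lies at chr17:87943407-87958557 on the plus strand with 10 merged exons. It was the member with the highest level per kilobase in the control libraries. Its values were 190.4 and 373 normalized counts in control and 786 and 833 in tamoxifen. The groups did not overlap, and the ratio of the means was 2.87, with a log2 fold change of 1.60 ± 0.33 and an adjusted p of 0.00399. The call was lost under quantile normalization, where the log2 fold change was 0.91, and when either tamoxifen library was left out (adjusted p = 0.118 and 0.137).

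Of 6 other epithelial adhesion genes, 5 were called higher, among them Cd24a, Cdh3, Cd9 and Nectin4, and Bcam was called lower. The shares over all genes tested were 28.6% higher and 16.0% lower. Cd24a, a small cell surface glycoprotein of epithelia and progenitors, was 1115 and 1248 in control and 15774 and 13504 in tamoxifen, a 12.4-fold difference of means. Bcam, a laminin receptor also present on vessels, fell from 27207 and 33221 to 5091 and 3098 (log2 fold change -2.92 ± 0.26, adjusted p = 8.44e-05). Cdh3, already given among the cadherins, had the largest log2 fold change. The adhesion genes thus differed in direction, with a median log2 fold change of 2.01. Those called higher numbered 3 under quantile normalization and 2 without either tamoxifen library.

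Cldn4, Cldn6 and Cldn7 encode claudins, the membrane proteins that set the permeability of epithelial tight junctions. Cldn4 is a single-exon gene at chr5:134973973-134975788 on the minus strand. It was nearly undetected in the control libraries, with 2 and 8 reads, a sum of 10 reads with an exact 95% Poisson interval of 4.80 to 18.4 that covers counting error only. In normalized counts it was 2.74 and 10.01 in control and 371 and 241 in tamoxifen. The ratio of the means was 48.0, and the log2 fold change was 5.55 ± 0.65 (adjusted p = 0.000264). It was called under all 14 alternatives, as was Cdh1.

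Cldn6, a claudin of embryonic epithelia, lies at chr17:23898223-23901420 on the plus strand with 3 merged exons. Its values were 37.0 and 45.1 in control and 208 and 162 in tamoxifen. The groups did not overlap, and the log2 fold change was 2.14 ± 0.42 (adjusted p = 0.00325). Under quantile normalization it was 1.05 with an adjusted p of 0.0637, and leaving out tamoxifen replicate 1 or 2 gave adjusted p = 0.0807 and 0.0657.

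Cldn7 lies at chr11:69852648-69858711 on the plus strand with 6 merged exons. It was the weakest of the called members, at 20.5 and 18.8 in control and 61.8 and 48.2 in tamoxifen. The control libraries held 15 reads each and the tamoxifen libraries 57 and 67. Its log2 fold change of 1.43 ± 0.52 passed narrowly (adjusted p = 0.0464), and 9 of 13 alternatives did not call it, with adjusted p from 0.0128 to 0.388 over all 13. Cldn7 shares 331 exon bases with Elp5 on the opposite strand. The library kit keeps strand, but the strand setting of the counting is not given in the sources used here.

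All 3 claudins remained a small part of the family. Cldn5, the claudin of the blood-brain barrier, made up 99.7% and 99.6% of the 17 listed claudins per kilobase in control and 90.7% and 80.2% in tamoxifen. Cldn4, Cldn6 and Cldn7 together made up 0.0342% and 0.0424% in control and 1.74% and 2.49% in tamoxifen. Cldn5 fell from 135060.0 and 134934 to 26217 and 11392 normalized counts (log2 fold change -2.97 ± 0.40, adjusted p = 0.000501), which by itself raises the share of the others. In the family, 10 of 15 tested claudins were called higher and 2 lower, against 28.6% and 16.0% of all genes tested. Cldn13 was the largest rise, from 0 and 3.75 to 922 and 673 normalized counts, at least 203-fold higher when control is set at 3 reads per library. Cldn9 was the other claudin called lower, at 46.6 and 90.1 against 23.8 and 14.4, and it was not called after scaling to equal totals. Those called higher numbered 6 under quantile normalization, 5 without tamoxifen replicate 1 and 4 without replicate 2, and 1 was called lower without either of these or without control replicate 2.

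The remaining tight junction and polarity genes did not move in one direction. Of 12 tested, Pard6b, Cgn, Tjp3 and Llgl2 were called higher, Ocln, Lsr, F11r, Marveld2 and Cldn9 lower, and 3 were not called. Their median log2 fold change was 0.76. Over all genes tested, 28.6% were called higher, close to the share here, and 16.0% lower. Pard6b, a subunit of the apical Par complex, rose from 12.3 and 16.3 to 674 and 541 normalized counts. Cgn, cingulin of the tight junction plaque, rose from 34.2 and 83.9 to 541 and 449. Ocln, occludin, fell from 24928 and 23805 to 3806 and 1930.2, and Lsr, angulin of tricellular junctions, fell from 8580.0 and 8538 to 1842 and 890.0. Occludin and Lsr are also part of brain endothelial junctions. Without either tamoxifen library 2 of the 12 were called higher.

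Krt8 and Krt18 encode the type II and type I partners of the keratin filament of simple epithelia. They are neighbors in the same region, Krt8 at chr15:101905133-101912917 on the minus strand with 9 merged exons and Krt18 at chr15:101936615-101940462 on the plus strand with 7. Krt8 was 12.3 and 48.8 in control (9 and 39 reads) and 489 and 554 in tamoxifen (451 and 770 reads). The ratio of the means was 17.0, and the log2 fold change was 4.34 ± 0.61 (adjusted p = 0.000629). Krt18 was 50.7 and 95.1 in control and 463 and 537 in tamoxifen. Its ratio was 6.86, with a log2 fold change of 2.83 ± 0.38 (adjusted p = 0.000532). The groups were apart for both keratins, and both control replicate 2 values were higher than those of replicate 1.

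The pair was closer to balance in the tamoxifen libraries. Per kilobase, the ratio of Krt8 to Krt18 was 0.179 and 0.377 in control and 0.775 and 0.757 in tamoxifen. The difference between the groups in this ratio was not tested. Both calls were lost when either tamoxifen library was left out, with adjusted p = 0.0725 and 0.0856 for Krt8 and 0.0555 and 0.0707 for Krt18. Near-identical copies exist elsewhere in the genome, 1 for Krt8 on chromosome 7 (97.9% identity over up to 1736 bases) and 2 for Krt18 on chromosomes 13 and 2 (up to 93.2% identity). How reads were divided between gene and copies is not given in the sources used here, so the levels of both are uncertain to that extent.

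Keratins as a family were low in control. Krt222 made up 74.4% and 65.3% of the 19 listed keratins per kilobase there and 6.07% and 4.29% in tamoxifen. Krt8 and Krt18 together made up 12.1% and 19.6% and then 54.8% and 62.7%, which made them the leading keratins of the tamoxifen libraries. Krt19, a small type I keratin that also pairs with Krt8, rose from 1.37 and 0 to 242 and 209.9 normalized counts, at least 57.4-fold higher. Krt42 was at 0 reads in both control libraries and at 217 and 133 normalized counts in tamoxifen, at least 44.5-fold higher. Krt222 fell from 949 and 1123 to 234 and 166. Of 13 keratins tested, 9 were called higher and Krt222 lower, against 28.6% and 16.0% of all genes tested. Some of the 9, such as Krt19, Krt42 and Krt23, were below the filter in control and were tested through their tamoxifen values alone. Of the 6 keratins tested that were listed with simple and stratified epithelia beside Krt8 and Krt18, Krt19, Krt23, Krt7, Krt17 and Krt80 were called higher, with Krt23 at 0 reads in control and 22.8 and 28.0 normalized counts in tamoxifen. Krt80 was 20.5 and 55.1 in control and 118 and 94.2 in tamoxifen. Of these 6, 3 were called higher under quantile normalization, 2 without tamoxifen replicate 1 and 3 without replicate 2, and of the 13 keratins 4 were called higher without either tamoxifen library.

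Desmosomal genes, whose products anchor keratin filaments, were called higher in 5 of 9 (Dsg2, Dsc2, Dsp, Pkp2 and Pkp3) and lower in 1. The shares over all genes tested were 28.6% higher and 16.0% lower. Dsg2, desmoglein of simple epithelia, rose from 15.1 and 65.1 to 1406 and 1134 normalized counts, 31.7-fold between means. Dsc2, its desmocollin partner, rose from 8.22 and 18.8 to 103 and 89.9. Jup, plakoglobin, which serves desmosomes and also the adherens junctions of ECs, fell from 19684 and 21502 to 7339 and 5083 (log2 fold change -1.75 ± 0.22, adjusted p = 0.000327). Without either tamoxifen library 1 of the 9 was called higher, and with equal totals 7 were.

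Esrp1 encodes an RNA-binding protein that directs epithelial patterns of alternative splicing. It lies at chr4:11331933-11386875 on the minus strand with 17 merged exons. It was the exception among the 8 genes, with 67.1 and 113 normalized counts in control and 118 and 93.5 in tamoxifen. Tamoxifen replicate 2 lay below control replicate 2, so the groups overlapped. The log2 fold change of 0.27 ± 0.44 did not pass the test (adjusted p = 0.620), and it changed sign under quantile normalization (-0.87) and without control replicate 1 (-0.10). Esrp1 shares 498 exon bases with a noncoding gene on the opposite strand. Its paralog Esrp2, looked up after its values were seen, was 87.7 and 90.1 in control and 119 and 98.5 in tamoxifen (log2 fold change 0.28 ± 0.39, adjusted p = 0.557), and it also changed sign under quantile normalization. Per kilobase, the ratio of Esrp1 to Esrp2 was 0.768 and 1.25 in control and 0.994 and 0.952 in tamoxifen. Neither epithelial splicing regulator differed detectably between the groups at these depths.

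Of 8 tested regulators of epithelial genes, with Esrp2 among them, 6 were called higher, against 28.6% of all genes tested. Klf5, a zinc finger factor of epithelia and of pluripotent cells, rose from 63.0 and 70.1 to 5959 and 4989.9 normalized counts (log2 fold change 6.34 ± 0.21, adjusted p = 3.32e-06). Elf3, an ETS factor of epithelia, rose from 1.37 and 11.3 to 978 and 678. Grhl1, a grainyhead-like factor, was not called, with 189 and 194 against 186 and 398. The median log2 fold change was 4.37, or 3.69 with the 2 genes at or under 3 reads in both control libraries set at their lower bound. Without tamoxifen replicate 1, 4 were called higher, and 3 without replicate 2.

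Proteases, inhibitors and trafficking genes of epithelia were called higher in 7 of 14, and none was called lower, against 28.6% and 16.0% of all genes. Ddr1, a collagen receptor kinase, rose from 493 and 974 to 2653 and 4025. Lad1, ladinin of the basement membrane zone, rose from 0 and 6.26 to 69.4 and 57.5. Erbb3, a receptor of neuregulins, rose from 26.0 and 46.3 to 809.6 and 743. Without either tamoxifen library 2 of the 14 were called higher, and quantile normalization called 2 lower.

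Over these 6 roles, 60 of 63 listed genes were in the table and 55 were tested. Of these 32 were called higher, 7 lower and 16 not, with a median log2 fold change of 1.75 against 0.05 for all genes. Over all genes tested 28.6% were called higher and 16.0% lower, so the 7 called lower did not exceed that share. Some of those called higher, such as Krt19 and Elf3, were low in control and were tested through their tamoxifen values alone. The count called higher fell to 13 without tamoxifen replicate 1 and to 13 without tamoxifen replicate 2. The lists were written with earlier results of these libraries known. The 7 genes called lower were Bcam, Ocln, Lsr, F11r, Marveld2, Cldn9 and Jup, of which only Cldn9 was below 100 normalized counts in control.

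**Figure D3:**
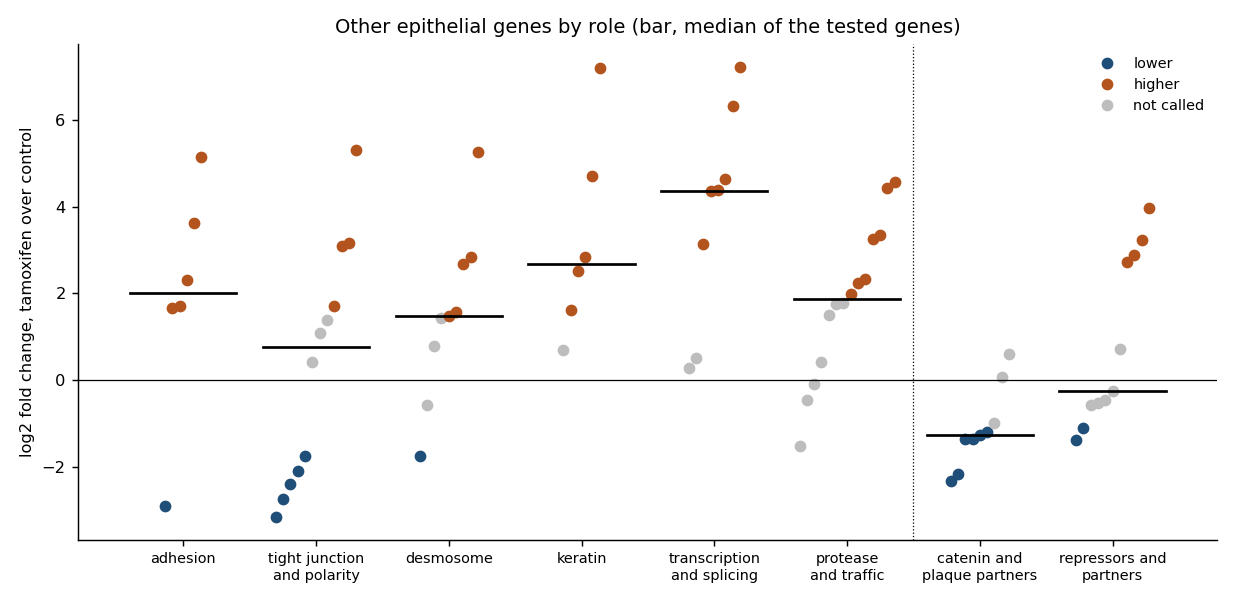
Log2 fold change (tamoxifen over control) of each tested gene in 6 epithelial roles and, right of the dotted line, of catenin and plaque partners and of repressors; colors give the call and black bars the median of each group. Transcription and splicing genes have the highest median (4.37), and the partners lie mostly below 0.

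RNA of the genes whose proteins couple cadherins and claudins to actin was mostly lower with the deposited scaling. Of 9 catenin and plaque partners, none was called higher and 6 were called lower, against 16.0% of all genes called lower, with a median log2 fold change of -1.27. Ctnnb1, beta-catenin, fell from 58668 and 55742 to 24652 and 19867. Tjp1, ZO-1, fell from 85137 and 76205 to 20219 and 15816, and Cgnl1, paracingulin, from 36970.4 and 37046 to 9221 and 5861. The call of Ctnnb1 was lost after scaling to equal totals and after quantile normalization, and with equal totals 2 of the 9 partners were called lower and 1, Nectin2, higher. Quantile normalization called 3 lower. Nectin2, a nectin of adherens junctions, was 2194 and 2303 in control and 3958 and 2937 in tamoxifen (log2 fold change 0.60 ± 0.18, adjusted p = 0.0231). Tjp1 and Cgnl1 also belong to endothelial junctions.

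Known repressors of Cdh1 and their partners moved in both directions. Of 11 tested, Snai1, Zeb2, Twist1 and Twist2 were called higher and Snai2 and Tcf4 lower. Over all genes tested, 28.6% were called higher and 16.0% lower, shares not far from these. Snai1 and Zeb2 are named after their values were seen. Snai1 was 64.4 and 72.6 in control and 596 and 446 in tamoxifen, and Zeb2 was 533 and 682 against 3344 and 4794. Twist1 rose from 20.5 and 40.1 to 300.2 and 262, and Twist2 from 3 reads in each control library to 84.5 and 69.0 normalized counts. Snai2 fell from 799.9 and 795 to 389 and 235, and Tcf4 from 39976 and 36445 to 15510.2 and 20465, but neither was called after scaling to equal totals, and leaving out either tamoxifen library left 1 of the 11 called lower. Cdh1 and 4 repressors of Cdh1 were thus higher in the same bulk libraries. Of the 11, 5 lay above both control libraries in both tamoxifen libraries and 6 lay below, with a median log2 fold change of -0.25. Zeb1, named after its values were seen, was 8105 and 7705 in control and 4845 and 6193 in tamoxifen, and it was not called.

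The order of the 8 genes changed between the groups. Per kilobase of exon, the control means ran from Epcam (108.9), Krt18 (50.7), Cldn6 (23.8), Krt8 (15.6), Esrp1 (11.5), Cdh1 (10.8) and Cldn7 (9.31) to Cldn4 (3.51). Epcam and Krt18 were apart in control, and the neighbors from Cldn6 to Cldn7 overlapped in their libraries. In tamoxifen the means ran from Cdh1 (1207), Krt18 (348), Epcam (313), Krt8 (266), Cldn4 (168), Cldn6 (108) and Cldn7 (26.0) to Esrp1 (13.5). Krt18 and Epcam overlapped there, and every other pair of neighbors was apart. Cdh1 rose from place 6 to place 1 of the 8.

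Differences between replicates were largest in control for Krt8 and Cldn4. The ratio of control replicate 2 to replicate 1 was 3.96 for Krt8, 3.66 for Cldn4, 1.96 for Epcam, 1.88 for Krt18, 1.68 for Esrp1, 1.43 for Cdh1, 1.22 for Cldn6 and 0.914 for Cldn7. Over all genes tested its median was 1.03 and the range from the 5th to the 95th percentile was 0.377 to 2.34, so Krt8 and Cldn4 lay above that range. The ratio of tamoxifen replicate 1 to replicate 2 was 1.52 for Cdh1 and 1.54 for Cldn4, and from 0.862 to 1.28 for the others, against a median of 1.06.

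The choice of scaling shifted all 8 genes. Scaling to equal totals raised the median log2 fold change of all genes by 0.49, and quantile normalization lowered it by 0.28. Of all calls, 64.1% were higher with the deposited scaling, 80.3% with equal totals and 45.6% with quantile normalization. Relative to the median of all genes, the log2 fold change of Cdh1 was 6.72 as deposited, 6.70 with equal totals and 6.69 with quantile normalization. That of Krt8 was 4.29, 4.26 and 3.62, and that of Cldn4 was 5.49, 5.43 and 4.42. Relative to the median, Esrp1 was 0.22, 0.19 and -0.65. Under quantile normalization 4 of the 8 genes were called higher, namely Cdh1, Krt8, Krt18 and Cldn4.

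**Figure D4:**
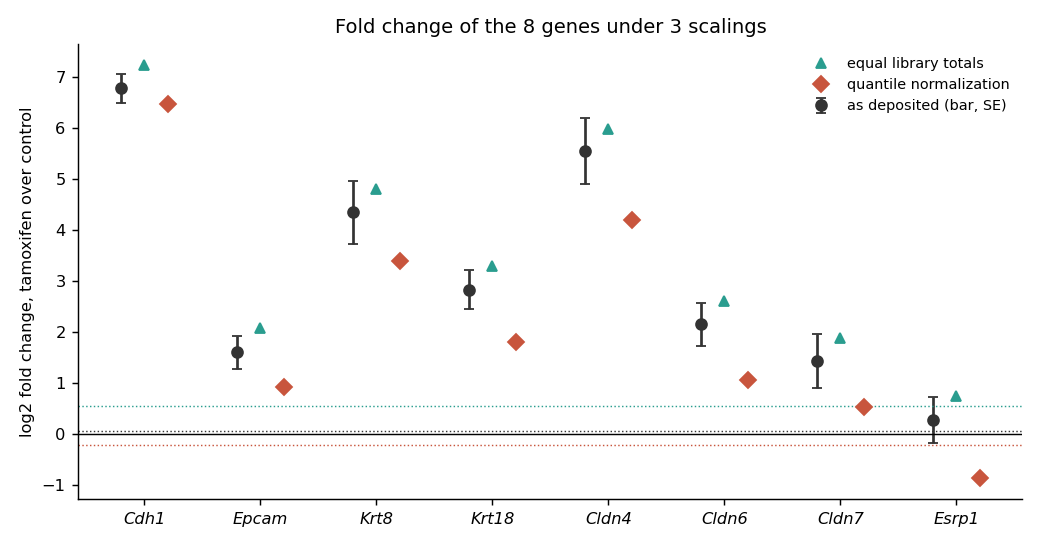
Log2 fold change of the 8 genes (tamoxifen over control) with the deposited scaling (circles, bars give the SE), with equal library totals (triangles) and with quantile normalization (diamonds); dotted lines give the median of all genes under each scaling in the same color. Cdh1 stays between 6.47 and 7.24, and Esrp1 is above 0 with 2 scalings and at -0.87 with quantile normalization.

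Markers of other cell types that carry these genes differed between the groups as well. Beside the counts of each marker list stand 28.6% of all genes tested called higher and 16.0% called lower. All 10 pluripotency markers were called higher, and their summed level was 108 and 170.2 normalized counts in control and 58195 and 45222 in tamoxifen. Sall4 and Nanog had the largest log2 fold changes, and Nanog rose from 8.22 and 7.51 to 7823 and 5241. Tdgf1 reached 11019 and 9229.9 in tamoxifen, and Dppa4 was at 27.4 and 51.3 in control. Of 5 trophectoderm markers tested, Tfap2c, Hand1, Eomes and Elf5 were called higher, with sums of 186 and 183 in control and 1347 and 1405 in tamoxifen. Cdx2 and Hand1 had 0 reads in both control libraries, and Tfap2c reached 863 and 658 in tamoxifen, while Gata3 overlapped between the groups.

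Markers of simple epithelia of the brain were also higher. Of 8 choroid plexus markers, 7 were called higher, and the sum was 1159 and 3799 in control and 17450.2 and 52701 in tamoxifen. Ttr made up most of it, at 793 and 3108 against 7069.6 and 41530.0, and Otx2 and Aqp1 had the largest log2 fold changes. Without tamoxifen replicate 1, 4 of the 8 were called higher, and 1 without replicate 2. All 6 ependymal markers were called higher, or 2 without tamoxifen replicate 2, led by Tmem212 and Ccdc153, with sums of 245 and 417 in control and 1771 and 4248 in tamoxifen. The sums of both lists were higher in tamoxifen replicate 2 than in replicate 1, which for choroid plexus rests largely on Ttr. Among the choroid plexus markers Aqp1 went the other way (7930 in replicate 1 and 6142 in replicate 2), and Folr1 was close (922 and 999). Of the 8 genes, Cdh1, Cldn4, Cldn6, Cldn7 and Esrp1 were higher in tamoxifen replicate 1. Epcam, Krt8 and Krt18 were slightly higher in replicate 2.

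Pituitary markers went the other way, with 7 of 8 tested called lower and Lhb called higher, but Lhb was not called when either tamoxifen library was left out. Their sum was 13489 and 37728 in control and 171 and 183 in tamoxifen. Gh and Prl, growth hormone and prolactin, were at 3 reads or fewer in each tamoxifen library, at least 1857-fold and 1044-fold lower. Control replicate 2 held the higher pituitary sum and also the higher level of all members but Cldn7. The sums of the pluripotency, choroid plexus, ependymal, keratinocyte, erythroid and leukocyte lists were likewise higher in control replicate 2. Those of the endothelial and trophectoderm lists were not. Keratinocyte markers were low, with 1 of 3 tested called higher (Trp63), Ivl at 0 reads in both control libraries, and sums of 60.3 and 91.4 in control and 174 and 237 in tamoxifen. Erythroid markers were called higher in 7 of 8, with the largest rise in Slc4a1, and lower for Tfrc, with 4 called higher without either tamoxifen library and Tfrc not called without replicate 2, and with sums of 77709 and 99874 in control and 192547 and 123369 in tamoxifen. All 8 leukocyte markers were called higher, led by Mpo and Ngp. The sum of leukocyte markers was 271 and 319 in control and 73830.2 and 55107 in tamoxifen, although the methods describe CD45- cells. The part of these cell types in the levels of the 8 genes was not tested.

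**Figure D5:**
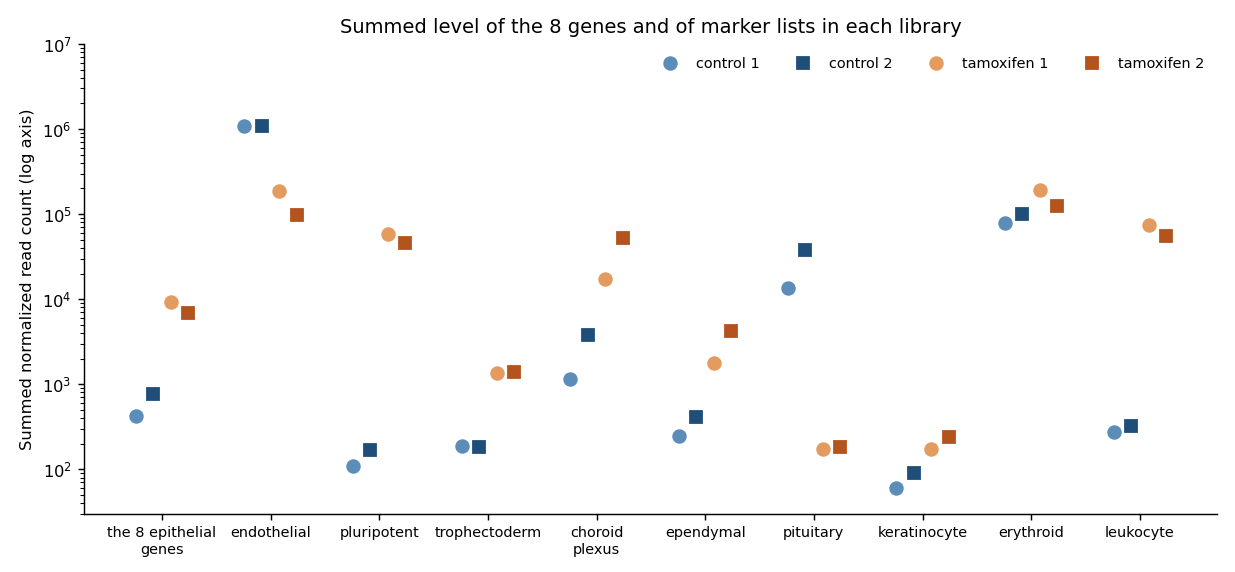
Summed normalized read counts (log axis) of the 8 genes and of 9 marker lists in each library, circles for replicate 1 and squares for replicate 2. The 8 genes sum to 422 and 762 in control and 9242 and 6916 in tamoxifen, pluripotency markers rise in the same direction, and endothelial and pituitary markers are lower in tamoxifen.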

How the data were processed

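RNA of 2 control and 2 tamoxifen libraries was compared. The authors aligned reads to GRCm39 with STAR 2.7.10a, counted them during alignment and removed low-count genes. They used DESeq2 1.36.0 for normalization and for testing differential expression. What they deposited is a signal, each gene's read count over 1 factor per library, and 100% of the values were whole multiples of 1 read within a tolerance of 0.001, so reads were recovered. No other column of values was present. Because the values are normalized, the main test was limma 3.58.1 (R 4.3.3; lmFit, eBayes with trend) on log2(value + 1), a scale that understates changes of low genes, with the study's limits on adjusted p (0.05) and log2 fold change (1). A fold against a group at or under 3 reads per library is a lower bound, and floors cover counting error only. Gene positions came from GENCODE M39 (24451 symbols matched) and copies were searched with blastn 2.17.0 (at least 90% identity over 100 bases).

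Alternatives were each library left out, equal totals, quantile normalization, no filter, a mean of at least 100, pseudocounts of 0.5 or 5, no trend, a replicate block, the adjusted p alone, and, on recovered reads, DESeq2 1.42.0 and edgeR 4.0.16. The fits were first run on simulated data in which few genes changed, none of them low in control. That run does not cover genes as low in control as Cldn4, or data where many genes differ. Besides the 8 genes, Cdh5, Cdh2, Cldn5 and Mgp, the text names, for each list, the genes with the highest mean in each group and the 2 largest rises and falls in log2 fold change among called genes; others are marked as chosen after their values were seen. Cell type markers were taken from fixed lists. Members and lists were chosen with earlier results of these data known. A few listed items are not reported here.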

Additional observations from a re-analysis of the deposited data

How the results depend on the processing

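Of the 8 genes, 7 were called higher, and the count stayed within 1.5 times of that under 12 of 15 alternatives. It was 4 under quantile normalization and from 2 to 6 when 1 library was left out, with 2 without either tamoxifen library. Where a group is left with 1 library, its spread is assumed to be that of the other group, and fewer libraries alone lower the power. Of the other epithelial genes, 32 were called higher, 21 with a mean of at least 100, which tested fewer genes, and from 13 to 38 when 1 library was left out. The 7 called lower ranged from 6 to 10. Cdh1 and Cldn4 were called under all 14 alternatives that gave them a value. Esrp1 was -0.87 under quantile normalization and from -0.10 (without control replicate 1) to 0.64 when 1 library was left out, and the cause was not tested. Cldn7 and Esrp1 have no value with a mean of at least 100. The numbers 1 and 2 do not pair the libraries by the labels, and the deviations of same-numbered libraries correlated at 0.0251 over 20485 genes. With the replicate block 6 of the 8 genes and 36 of the other epithelial genes were called higher, and Cldn7 had an adjusted p of 0.0512. Levels of a few reads, as for Cldn4 in control, limit the precision of its fold change.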
